A study of Mus musculus with 16 samples.

Results

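Open chromatin was examined at the cytosolic sulfotransferase genes of mouse liver. The set held 8 genes chosen by name, Sult1a1, Sult1b1, Sult1c2, Sult1d1, Sult1e1, Sult2a1, Sult3a1 and Sult5a1, among 22367 protein-coding genes of the annotation. Their DNase hypersensitive sites (DHS) were all regions that overlapped a gene or the 20 kb on either side of it. The 8 windows held 34 of the 51482 DHS regions of the whole data set. Livers came from male and female C57BL/6J (B6) mice, the inbred strain behind the reference genome, and from male and female CAST/EiJ (CAST) mice, which descend from wild-caught animals of a different subspecies and are also inbred. The labels gave an age of 8 weeks and 32 units of DNase I for every library. The 4 libraries of each sex and strain were merged into 1 list of peaks, so that each of the 4 lists is a single measurement with no replicate error, and no test between groups was possible.

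Sulfotransferases move a sulfonate group from the donor PAPS to phenols, steroids, amines and bile acids, which makes most of these molecules more soluble in water and often ends their activity. Several of the genes are known in mouse liver for expression that differs between the sexes under the control of pituitary growth hormone, which acts through STAT5, with BCL6 and CUX2 among the downstream repressors. A DHS is a stretch of open chromatin, and DHS near a gene are candidate promoters and enhancers of it.

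Sequences of 6 DHS are printed because the strain and sex differences described below turn on them. Each is 300 bases of the mm9 assembly, centred on the highest summit of the region, and mm9 is B6 sequence, so CAST letters are not shown. Distances are from the transcription start site (TSS) of the gene. Capitals mark matches on either strand to motifs of liver factors, namely TTCNNNGAA for STAT5 or BCL6, ATTGAT for HNF6 or CUX2, TGTTTAC or TATTTAC for FOXA, CAAAGTCCA for HNF4A, GTTAAT for HNF1, TTGCNNAA for C/EBP, AGGTCA for nuclear receptors, and the CTCF motif, each counted separately where matches overlapped.
Sult3a1 upstream DHS, 13.02 kb before the TSS, chr10:33570568-33570867, plus strand: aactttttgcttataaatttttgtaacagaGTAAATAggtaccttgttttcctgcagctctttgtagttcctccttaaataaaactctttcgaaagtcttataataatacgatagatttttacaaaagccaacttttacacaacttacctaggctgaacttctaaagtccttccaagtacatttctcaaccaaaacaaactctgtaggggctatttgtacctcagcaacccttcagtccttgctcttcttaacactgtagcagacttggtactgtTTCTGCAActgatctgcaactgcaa
Sult3a1 upstream DHS, 10996 bp before the TSS, chr10:33572595-33572894, plus strand: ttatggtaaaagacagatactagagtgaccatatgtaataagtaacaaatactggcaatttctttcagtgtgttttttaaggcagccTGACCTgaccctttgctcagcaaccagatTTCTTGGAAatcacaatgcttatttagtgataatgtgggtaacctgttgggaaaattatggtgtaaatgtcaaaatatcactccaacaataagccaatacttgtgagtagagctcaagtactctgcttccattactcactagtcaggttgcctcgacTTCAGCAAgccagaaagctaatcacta
Sult3a1 intronic DHS, 2.12 kb past the TSS, chr10:33585708-33586007, plus strand: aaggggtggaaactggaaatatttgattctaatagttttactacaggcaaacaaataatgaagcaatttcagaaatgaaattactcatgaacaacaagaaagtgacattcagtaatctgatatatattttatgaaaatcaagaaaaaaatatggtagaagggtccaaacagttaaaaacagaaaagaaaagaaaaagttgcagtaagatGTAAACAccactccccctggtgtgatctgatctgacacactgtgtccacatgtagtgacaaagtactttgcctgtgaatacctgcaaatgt
Sult1e1 upstream DHS, 9.57 kb before the TSS, chr5:88030056-88030355, plus strand: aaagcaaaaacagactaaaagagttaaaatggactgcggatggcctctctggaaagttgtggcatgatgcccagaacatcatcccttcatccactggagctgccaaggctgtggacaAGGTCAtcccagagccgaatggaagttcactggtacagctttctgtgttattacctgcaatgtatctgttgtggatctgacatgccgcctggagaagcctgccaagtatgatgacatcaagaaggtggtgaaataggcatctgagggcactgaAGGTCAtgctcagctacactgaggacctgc
Sult1d1 upstream DHS, 4.15 kb before the TSS, chr5:88002053-88002352, plus strand: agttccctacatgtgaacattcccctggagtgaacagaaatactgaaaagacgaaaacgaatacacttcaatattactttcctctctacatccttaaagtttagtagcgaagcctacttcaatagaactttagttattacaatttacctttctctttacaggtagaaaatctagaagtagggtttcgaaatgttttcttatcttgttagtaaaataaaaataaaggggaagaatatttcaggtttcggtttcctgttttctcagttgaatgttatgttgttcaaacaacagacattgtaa
Sult2a1 intronic DHS, 23.3 kb past the TSS, chr7:14399297-14399596, plus strand: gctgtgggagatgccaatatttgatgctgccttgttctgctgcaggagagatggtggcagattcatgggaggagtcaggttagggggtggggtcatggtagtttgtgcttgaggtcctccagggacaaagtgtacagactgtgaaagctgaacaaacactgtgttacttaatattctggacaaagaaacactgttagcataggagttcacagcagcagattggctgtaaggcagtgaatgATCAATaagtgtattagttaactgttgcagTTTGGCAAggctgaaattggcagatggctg

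Of the Sult3a1 sequences, the DHS 10996 bp before the TSS held a match to the STAT5 or BCL6 motif, a C/EBP match and a nuclear receptor match. The DHS 13.02 kb before the TSS held a FOXA and a C/EBP match, and the intronic DHS held a FOXA match. The Sult1e1 sequence held 2 nuclear receptor matches, the Sult2a1 sequence an HNF6 or CUX2 match and a C/EBP match, and the Sult1d1 sequence no match. Over the 34 regions, the 300 bases around the summit held the STAT5 or BCL6 motif in 6 regions, the HNF6 or CUX2 motif in 6, FOXA in 7, HNF1 in 11, C/EBP in 9, the nuclear receptor motif in 8, CTCF in 1 and HNF4A in 0. The shares among all regions with a full window were 10.2% for STAT5 or BCL6, 13.1% for HNF6 or CUX2, 11.1% for FOXA, 10.45% for HNF1, 17.2% for C/EBP, 26.0% for the nuclear receptor motif, 7.78% for CTCF and 1.68% for HNF4A. A match describes letters and not binding.

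Several of the printed sequences had related copies elsewhere in mm9, none with 95% identity or more over at least 100 bases. Both upstream Sult3a1 sequences matched places beside the neighbouring sulfotransferase gene Gm4794, with 74.8% identity over 302 bases (chromosome 10, 33506485 to 33506765) and 75.3% over 194 bases (33506026 to 33506208). Both places lay in a single DHS region (33505923 to 33506886) that was also found in CAST alone, with pileups of 205 reads in CAST males and 160 in CAST females. The intronic Sult3a1 sequence matched a stretch inside Gm4794 with 80.1% identity over 231 bases, where no list had a peak. The Sult1e1 sequence had 357 matches of 100 bases or more and was 83.6% identical over 281 bases to the transcript of Gapdh, a glycolytic enzyme, and the Sult2a1 sequence was 90.4% identical over 303 bases to that of Myst4, a histone acetyltransferase. The 2 nuclear receptor matches at Sult1e1 are thus in sequence related to Gapdh. The Sult1d1 sequence had no such match.

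For each peak the deposited fold enrichment is the summit pileup, the number of overlapping fragments, over the local background of the same list. The genome-wide background, which follows depth, was 15.4 reads in B6 males, 13.9 in B6 females, 14.3 in CAST males and 7.94 in CAST females, so the female CAST list was the shallowest. A gene without a peak in a list had none past the authors' threshold at that depth, which does not show closed chromatin. Promoters of 5 of 6 hepatocyte marker genes were open in every list, and those of Kupffer cell, bile duct and lymphocyte markers were open in none. Endothelial marker promoters were open at 3, 2, 2 and 1 of 3 genes in B6 males, B6 females, CAST males and CAST females, and stellate cell marker promoters at 1, 1, 1 and 0 of 3. The part of either in the results was not tested. In bulk liver, fewer cells with an open site and a less open site per cell cannot be told apart. Peaks on the Y chromosome numbered 53 in B6 males, 15 in B6 females, 0 in CAST males and 0 in CAST females. The source of those in B6 females and their absence in CAST males were not tested.

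Among the sulfotransferase windows, the strains stood farthest apart at Sult3a1, where 1 of 11 regions had a peak of both strains. At the other 7 genes 15 of 23 regions did, beside 57.9% of all regions. By list, 19 of the 34 regions (55.9%) had a peak in B6 males, 14 (41.2%) in B6 females, 26 (76.5%) in CAST males and 19 (55.9%) in CAST females. The shares over all regions were 74.6%, 50%, 76.2% and 47.3% in the same order. Over all 8 windows the members lay below these shares in both B6 lists, close in CAST males and above in CAST females. In all 4 lists 9 regions (26.5%) were found, beside 35.6% of all regions. Regions of both CAST lists that B6 lacked numbered 5 (14.7%), beside 3.62% of all regions, and each of the 5 lay in the Sult3a1 window. No region was found in both B6 lists only, a class that held 3.32% of all regions. The males of both strains alone shared 2 regions, at Sult1b1 and Sult1e1, in a class that held 9.38% of all regions. No region was shared by the females alone, a class that held 0.0622% of all regions. A single list accounted for 13 regions, beside 35.2% of all regions, and these were 4 in B6 males, 1 in B6 females, 5 in CAST males and 3 in CAST females. The last 5 regions were found in 3 lists. Without the Sult3a1 window, 23 regions remained, of which 9 (39.1%) were in all 4 lists and 0 in both CAST lists only. Of the 23, 19 had a peak in B6 males, 13 in B6 females, 17 in CAST males and 11 in CAST females. Both B6 lists then lay above the shares over all regions, and both CAST lists close to them.

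**Figure D1:**
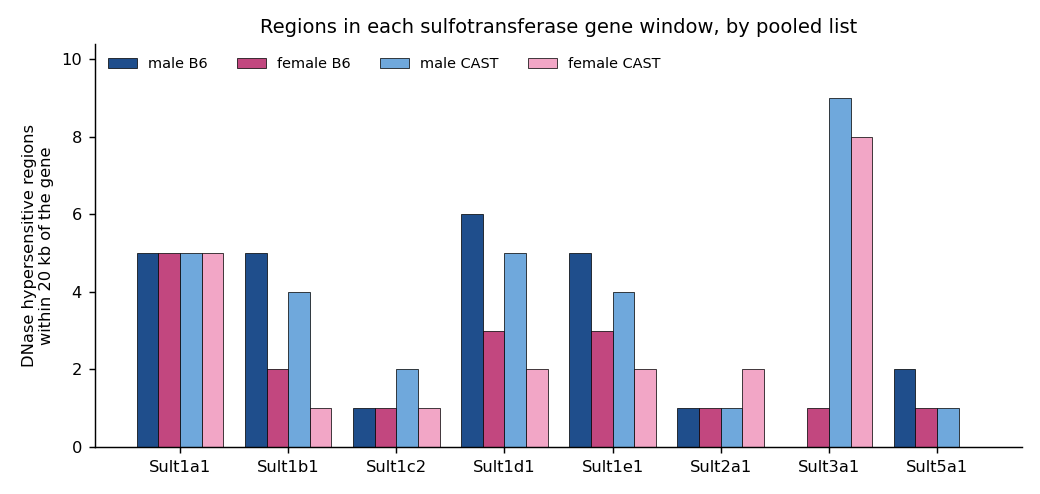
Number of DHS regions (y axis) within 20 kb of each of the 8 sulfotransferase genes (x axis), with 1 bar for each pooled list and no error bars because each list is a single measurement. At Sult3a1 the male CAST bar stands at 9 and the female CAST bar at 8, against 0 for male B6 and 1 for female B6, and at Sult1a1 all 4 bars stand at 5.

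The number of regions per window varied from 2 to 11 over the 8 genes, and the median over all protein-coding genes was 2. Sult1a1 had 6 regions, Sult1b1 6, Sult1c2 2, Sult1d1 7, Sult1e1 5, Sult2a1 2, Sult3a1 11 and Sult5a1 2, with 7 regions counted at 2 genes because Sult1b1, Sult1d1 and Sult1e1 are neighbours on chromosome 5. A DHS within 2.5 kb of a TSS was present in every list at Sult1a1, Sult1b1, Sult1c2 and Sult1d1. At Sult1e1 such a DHS was present in both male lists, at Sult5a1 in B6 males alone, and at Sult3a1 in every list but male B6. Sult2a1 had none in any list.

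The heights of the member peaks were close to those of their lists. The median fold enrichment over member regions was 3.44 in B6 males, 2.998 in B6 females, 3.90 in CAST males and 4.10 in CAST females, and the medians over all regions of the same lists were 3.50, 3.31, 3.75 and 4.10. The highest member peak of male CAST, at Sult1e1, stood at the 87.9th percentile of its list. The lowest member peaks of both CAST lists were in the Sult3a1 window, at fold enrichments of 1.77 in CAST males and 2.07 in CAST females.

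**Figure D2:**
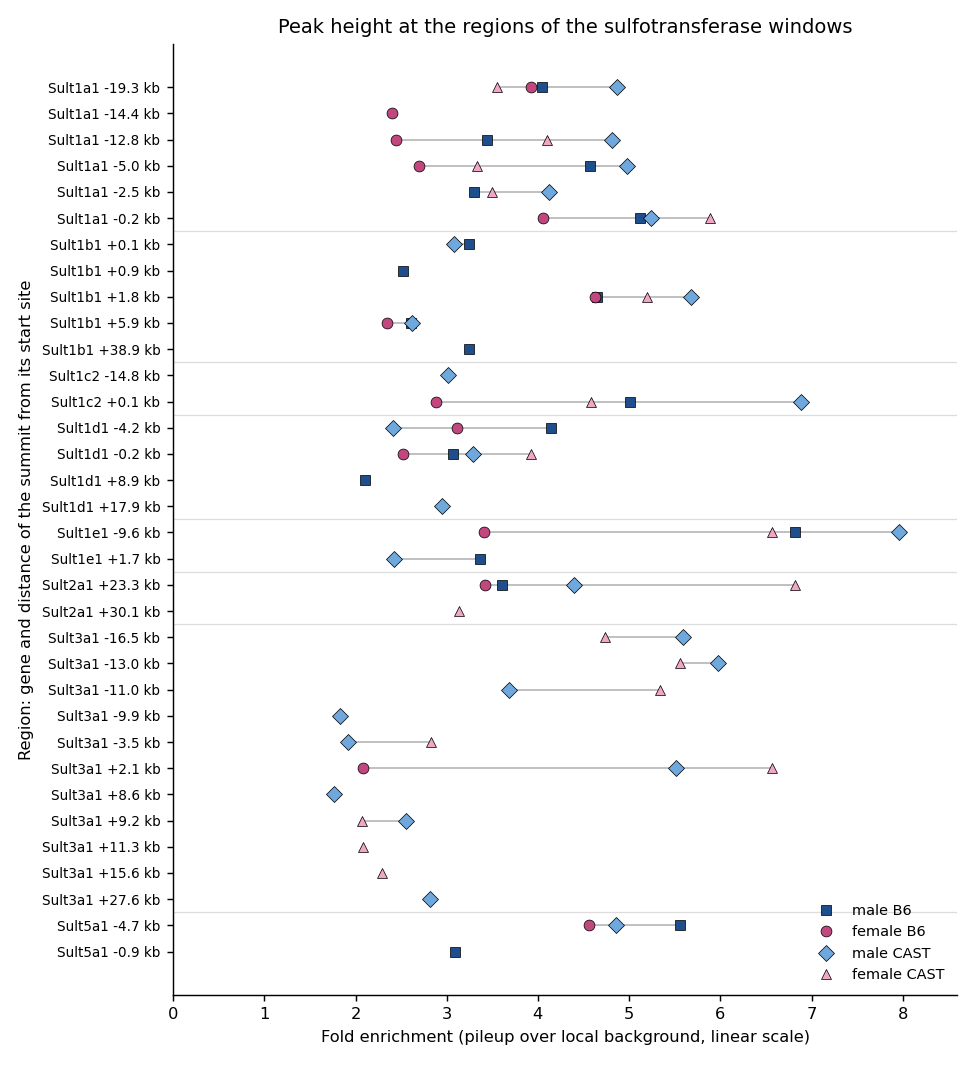
Fold enrichment (x axis, linear) at each of the 34 regions (y axis, by gene and by the distance of the summit from its TSS), with 1 symbol for each list that held a peak and a grey line from the lowest to the highest. A region in 2 windows is drawn once, with the gene whose TSS lies nearest. The Sult3a1 lines carry CAST symbols and a single female B6 symbol at 2.08, whereas the Sult1a1 lines mix symbols of both strains.

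Sult1a1, a phenol sulfotransferase, lies on the minus strand of chromosome 7 (mm9, 133816379 to 133819946) and had 5 regions in every list. Its promoter DHS (133819641 to 133820371, summit 177 bp before the TSS) had fold enrichments of 5.12 in B6 males, 4.06 in B6 females, 5.24 in CAST males and 5.88 in CAST females. The exact Poisson 95% intervals of these heights, which cover counting error only, all overlapped, and those farthest apart ran from 3.32 to 4.91 in B6 females and from 4.85 to 7.08 in CAST females. A second DHS, 4.95 kb before the TSS, was lower in the females of both strains, at 2.70 in B6 and 3.34 in CAST, than in the males, at 4.57 and 4.98. Relative to the median over all shared regions the male over female folds were 1.29 and 1.25. A DHS 12.8 kb upstream measured 3.44, 2.44, 4.81 and 4.10 in B6 males, B6 females, CAST males and CAST females, and another at 19.3 kb, which covers the promoters of Bola2 and Slx1b, measured 4.05, 3.93, 4.86 and 3.55. The DHS 2.53 kb before the TSS had no female B6 peak and stood at 3.30, 4.12 and 3.49 in the other lists. The only Sult1a1 region in a single list, 14.4 kb upstream, was in B6 females at 2.40.

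Sult1b1, which sulfonates thyroid hormones and phenols, lies on the minus strand of chromosome 5 (87942364 to 87967220). Its tallest DHS was in an intron 1.84 kb past the TSS (87964989 to 87965807), 133 bp from the start of another transcript of the gene, with fold enrichments of 4.65 in B6 males, 4.62 in B6 females, 5.67 in CAST males and 5.20 in CAST females. The region over the TSS itself (87967056 to 87967535, UTR exon) was found in both male lists only, at 3.25 in B6 and 3.08 in CAST. Another intronic DHS, 5.91 kb past the TSS, was at 2.61 in B6 males, 2.34 in B6 females and 2.62 in CAST males, with no female CAST peak. An intronic DHS 915 bp past the TSS (87966240 to 87966639) was in B6 males alone, at 2.52. The last 2 regions were also in a single list, B6 males at 3.24 and CAST males at 2.95.

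Sult1d1, which sulfonates catecholamines, is the next gene (87983670 to 87998052, minus strand). The promoter DHS (87997685 to 87998391) stood at 3.07 in B6 males, 2.52 in B6 females, 3.29 in CAST males and 3.92 in CAST females. The DHS 4.15 kb before the TSS (88001746 to 88002763), whose sequence is printed above, was at 4.14 in B6 males with a width of 1018 bp, 3.12 in B6 females, 2.41 in CAST males, and was not called in CAST females. The interval of male CAST, 1.79 to 3.18, did not overlap that of male B6, 3.42 to 4.97, but did overlap that of female B6, 2.40 to 3.98. An intronic DHS 8.95 kb past the TSS and 111 bp from the start of another transcript (87988964 to 87989202) was in B6 males alone, at 2.11.

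Sult1e1, the estrogen sulfotransferase (88004993 to 88020636, minus strand), had the highest member peak in 2 of the 4 lists. The DHS 9.57 kb before its TSS (88029706 to 88030565, intergenic), printed above with 2 nuclear receptor matches, stood at 6.82 in B6 males, 3.41 in B6 females, 7.96 in CAST males and 6.57 in CAST females. The female B6 list was the low one, with an interval of 2.59 to 4.42 against 5.70 to 8.10 in B6 males and 5.08 to 8.36 in CAST females. Sult1e1 had no promoter peak in the females. An intronic DHS 1.68 kb past the TSS (88018801 to 88019363) was found in both males only, at 3.36 in B6 and 2.43 in CAST.

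**Figure D3:**
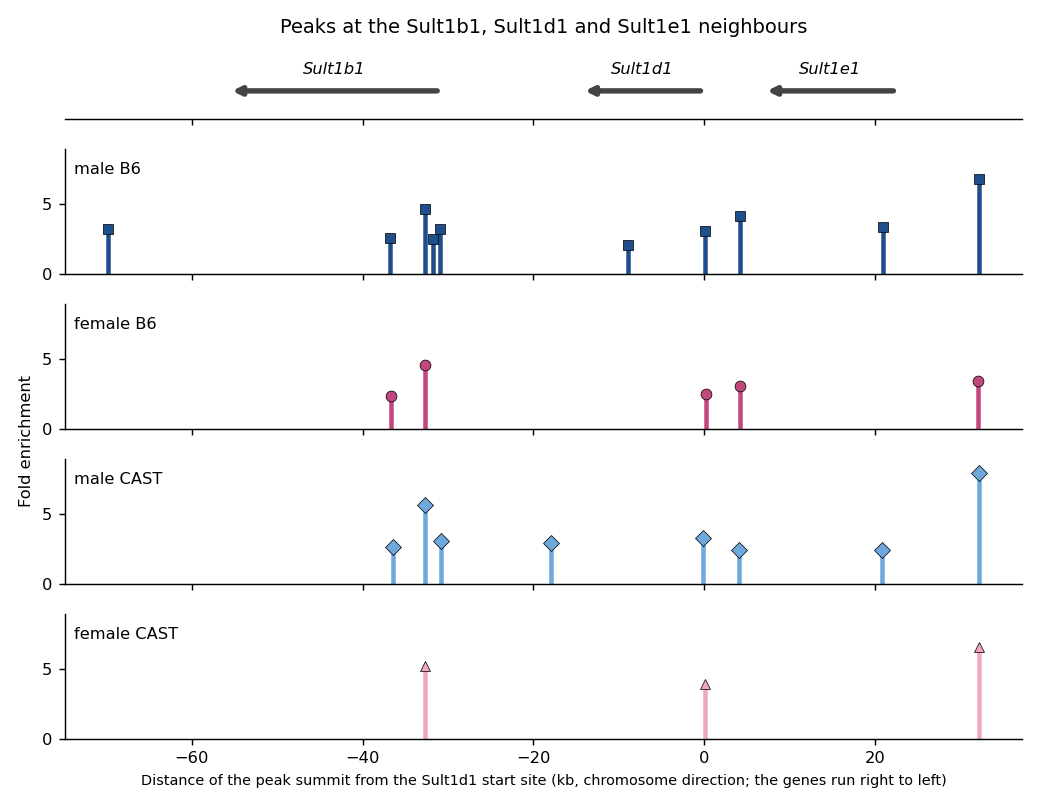
Fold enrichment (y axis) of the peaks at Sult1b1, Sult1d1 and Sult1e1 by distance of the summit from the Sult1d1 TSS in kb (x axis), 1 panel for each list, with the genes as arrows in the direction of transcription. The male B6 panel holds 10 peaks, female B6 5, male CAST 8 and female CAST 3, and the Sult1e1 upstream peak at the right is the tallest in both male panels and in CAST females.

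Sult1c2, another phenol sulfotransferase, lies on chromosome 17 (53968962 to 53985664, minus strand). Its promoter DHS (53985088 to 53986326) was the broadest of the promoters, up to 1215 bp in B6 males, with fold enrichments of 5.01 in B6 males, 2.88 in B6 females, 6.88 in CAST males and 4.59 in CAST females. In each strain the male list was the higher one by fold enrichment, with male over female folds relative to the median over all shared regions of 1.32 in B6 and 1.26 in CAST, and by pileup over the genome-wide background the relative folds were 1.05 and 1.04. A DHS 14.8 kb upstream was in CAST males alone, at 3.02.

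Sult2a1, which sulfonates hydroxysteroids and bile acids, lies on chromosome 7 (14381601 to 14422759, minus strand) and had a single DHS shared by all 4 lists, in an intron 23.3 kb past the TSS (14399260 to 14399647). The fold enrichment there was 3.61 in B6 males, 3.42 in B6 females, 4.39 in CAST males and 6.82 in CAST females. Female CAST was the high list, with an interval of 5.23 to 8.75, against 3.41 to 5.57 in CAST males and 2.55 to 4.48 in B6 females. The region had 2 other matches of at least 80% of its length in mm9, the best with 90.4% identity over 386 bp on chromosome 14, and no member region had a match of 95% identity or more. A second intronic DHS, 30.1 kb past the TSS, was in CAST females alone, at 3.13 from a pileup of 27 reads.

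Sult5a1, on chromosome 8 (125666747 to 125682215, minus strand), had 2 regions, both in an intron of the overlapping gene Gm20388. The DHS 4.65 kb before the TSS (125686681 to 125687607) was at 5.55 in B6 males, 4.56 in B6 females and 4.85 in CAST males, and the DHS 868 bp before the TSS was in B6 males alone, at 3.09. The female CAST list had no peak in the window.

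Sult3a1, which sulfonates amines, lies on the plus strand of chromosome 10 (33583741 to 33599322), and its DHS were almost all in CAST. Male B6 had 0 regions, female B6 1, male CAST 9 and female CAST 8. With lists of equal size male CAST had 5 and female CAST 8, with the stricter threshold both had 4, and with depth matched by scaling they had 6 and 8, and B6 had 0 in each case. A 50 kb window held 2 regions in B6 males, 4 in B6 females, 15 in CAST males and 13 in CAST females. The 5 regions in both CAST lists only make Sult3a1 1 of 9 protein-coding genes (0.0402%) with 5 or more such regions, and 7.62% of protein-coding genes had at least 1. The tallest, 13.02 kb before the TSS (33570389 to 33570983, intergenic), stood at 5.97 in CAST males and 5.55 in CAST females, from pileups of 245 and 135 reads. The DHS 16.5 kb before the TSS (33566694 to 33567547) stood at 5.59 and 4.74, and the DHS 10996 bp before the TSS (33572454 to 33573139) at 3.69 and 5.34. These CAST peaks lay between the 49.3rd and the 76.1st percentile of their lists. The other regions in both CAST lists were weaker, at 1.92 in males and 2.82 in females 3.50 kb before the TSS, and at 2.55 and 2.07 in an intron 9.20 kb past it.

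The intronic DHS 2.12 kb past the Sult3a1 TSS (33585641 to 33586343) was the only one with a B6 peak. Its fold enrichment was 2.08 in B6 females, 5.51 in CAST males and 6.56 in CAST females, and the pileups were 30, 223 and 150 reads. Both CAST lists were above female B6, whose peak stood at percentile 3.10 of its list and was lost with lists of equal size, with the stricter threshold and with depth matched by scaling. Its summit lay 320 bp from that of male CAST and 322 bp from that of female CAST, and the B6 and CAST peaks were not joined when an overlap of 50% of both was required. The other 5 regions of the window were each in a single CAST list, at 1.77 to 2.82. Under a 10 kb window the regions in both CAST lists only fell to 2, since 3 of the 5 lie more than 10 kb upstream.

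Within each sex the B6 list had the higher genome-wide background, 15.4 against 14.3 reads in males and 13.9 against 7.94 in females, whereas female B6 was slightly below male CAST. The local background in the Sult3a1 window varied in CAST, from the genome-wide value itself to 2.82 times that value over 9 male regions, with a median of 2.38, and from 1.14 to 2.96 times over 8 female regions, with a median of 2.30. It was highest at the DHS 13.02 kb upstream in both, and at the intronic DHS it was 2.78 and 2.77 times in CAST and at the genome-wide value in B6 females. Pileup follows the number of DNA copies as well as opening. Copy number was not measured here, and its part in the strain difference was not tested.

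The other protein-coding genes with the most regions in both CAST lists only within 20 kb were Gm4794, Clvs2 and Mid1, with 7 each against 5 at Sult3a1. Gm4794 is the neighbouring sulfotransferase gene, and it had 1 region in B6 males, 0 in B6 females, 12 in CAST males and 9 in CAST females. Clvs2, beyond it on the same chromosome, had 0, 0, 17 and 9 regions in the same order, and Mid1, on the X, had 10, 9, 20 and 11, so that B6 peaks were not missing there. The others with at least as many such regions as Sult3a1, named after their values were seen, were Cfhr2 and Etv6 with 6 and Vmn2r112, Irf2 and Fgfr2 with 5. By list, Cfhr2 had 5, 1, 17 and 9 regions and Vmn2r112 had 0, 0, 8 and 5. B6 peaks were more frequent at Etv6, with 13, 7, 20 and 14 regions, Irf2, with 11, 9, 15 and 13, and Fgfr2, with 79, 44, 87 and 49. The span from the start of Clvs2 to the end of the Sult3a1 window (chromosome 10, 33232092 to 33619322, 387 kb) was also described as a whole, a choice made after its values were seen. It held 60 regions, of which 3 had a peak in B6 males, 3 in B6 females, 51 in CAST males and 37 in CAST females, and 55 had no B6 peak. The highest pileup in the span was 544 reads in CAST males and 279 in CAST females, at summits 5.62 and 5.58 kb upstream of the TSS of Gm4794, against 55 in B6 males and 44 in B6 females. The median pileups over the span were 52 reads in CAST males and 34 in CAST females, over 51 and 37 regions. In B6 males and B6 females they were 46 and 36, over 3 regions each. These medians cover called peaks only and are not scaled to depth. The genome-wide backgrounds were 14.3, 7.94, 15.4 and 13.9 reads in the same order. The local background reached 5.56 times the genome-wide value in CAST males and 6.00 times in CAST females, above the 99th percentile of those lists (4.79 and 3.65), and stayed at or below 1.04 times in B6. The median over the span was 1.44 times in CAST males and 1.41 times in CAST females, close to the medians over all peaks of those lists, 1.30 and 1.29. Past the span, up to 34 Mb, 14 of 15 regions had a B6 peak.

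**Figure D4:**
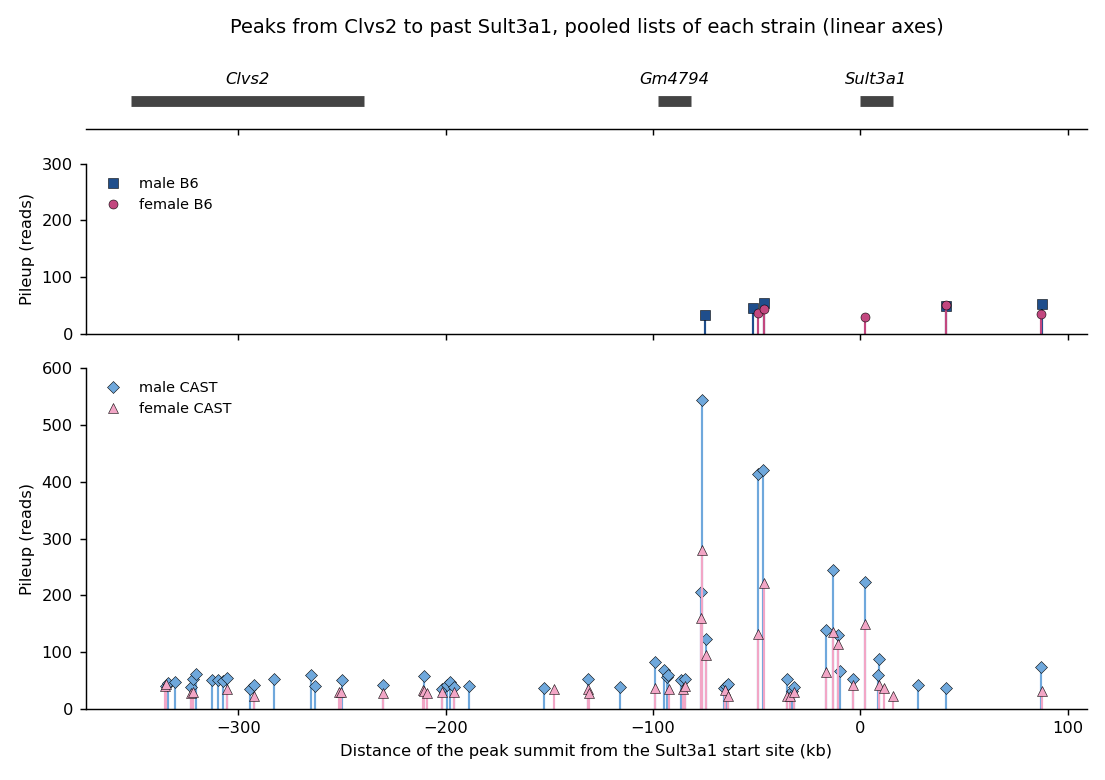
Summit pileup in reads (y axes, linear and on the same scale) of all peaks by distance from the Sult3a1 TSS in kb (x axis), B6 lists in the middle panel and CAST lists below, with gene spans on top. CAST peaks fill the span from Clvs2 to Sult3a1 and reach 544 reads, and the B6 peaks in the span do not pass 55 reads.

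Heights were next compared between lists at regions that both lists held, as a fold relative to the median fold over all such regions, which was 1.32 for males over females in B6, 1.19 for males over females in CAST, 1.06 for CAST over B6 in males and 1.19 for CAST over B6 in females. A relative fold of 1.5 or more in either direction was counted, with no test.

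The sexes of B6 shared 12 member regions. Of these, 1 was 1.5-fold or more higher in males, beside 2.62% of all shared regions, and 0 were higher in females, beside 2.6%. This was the Sult1e1 upstream DHS, with a relative fold of 1.51, and by pileup over the genome-wide background the fold was 1.26, below the limit. By that measure, also relative to its median, 0 member regions were higher in males, beside 3.41% of all shared regions, and 1 was lower, beside 8.31%, so that the balance of the counts turned. The count higher in males was 0 with the stricter threshold and 3 with no scaling to the median fold, beside 24.3% of all shared regions. In CAST the same DHS had a relative fold of 1.02 between the sexes, and whether the sex folds differ between strains was not tested.

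The sexes of CAST shared 16 member regions, of which 0 were higher in males, beside 3.31% of all shared regions, and 3 were 1.5-fold or more higher in females, beside 2.56%. The relative fold of males over females was 0.54 at the Sult2a1 intronic DHS, 0.58 at the Sult3a1 DHS 10996 bp upstream and 0.57 at the one 3.50 kb upstream. With no scaling to the median fold, both Sult3a1 folds lay inside the 1.5-fold limit, at log2 values of -0.54 and -0.56, and the Sult2a1 fold stayed past it, at -0.64. By pileup over the genome-wide background, also relative to its median, 6 regions were higher in females, beside 6.92% of all shared regions.

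Between the strains, males shared 15 member regions, of which 0 were higher in CAST, beside 6.68% of all shared regions, and 1 was 1.5-fold or more lower in CAST, beside 4.49%. This was the Sult1d1 DHS 4.15 kb upstream, with a relative fold of 0.55, and the count was 0 with the stricter threshold. Females shared 10, of which 3 were higher in CAST, beside 4.97% of all shared regions, and 0 were lower, beside 3.42%. These were the Sult3a1 intronic DHS at 2.66, the Sult2a1 intronic DHS at 1.68 and the Sult1e1 upstream DHS at 1.62. The Sult3a1 fold compares summits 322 bp apart, and with an overlap of 50% of both peaks required it could not be computed and the count was 2. The count was 6 with no scaling to the median fold, beside 15% of all shared regions, and 0 with the stricter threshold. The median relative fold over the 10 was 1.33, against 1.03 over the 15 regions of males. At the Sult3a1 intronic DHS the fold by pileup over the genome-wide background was 6.81. The same regions in males had relative folds of 1.15 at Sult2a1 and 1.11 at Sult1e1.

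**Figure D5:**
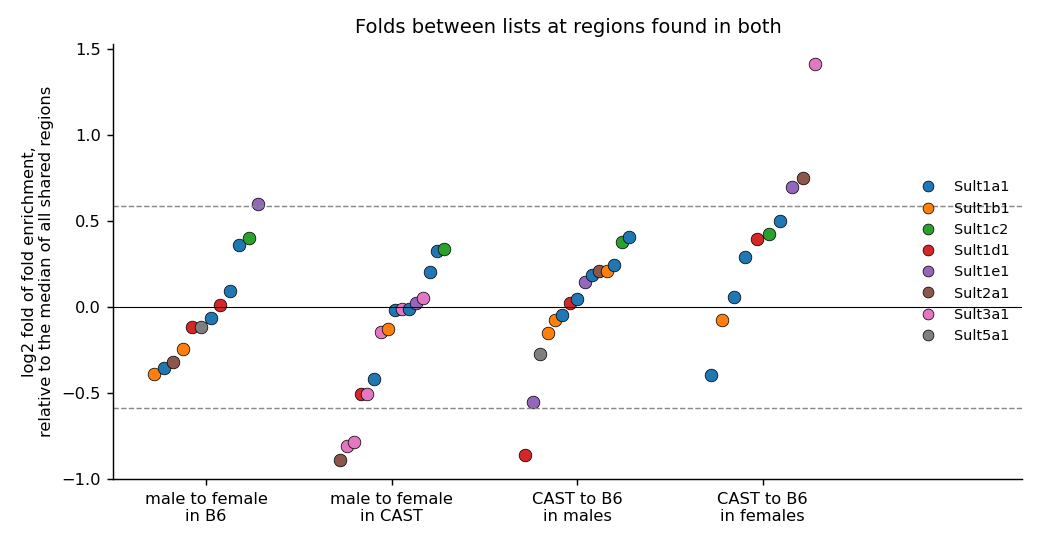
Log2 fold of the fold enrichment, relative to the median over all shared regions (y axis), for each member region found in both lists of a comparison (points, coloured by gene and ordered by value), with dashed lines at 1.5-fold. Points past the lines are 1 of 12 for males over females in B6, 3 of 16 in CAST, 1 of 15 for CAST over B6 in males and 3 of 10 in females, where Sult3a1 is highest at 1.41.

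Position was compared at the 9 member regions found in all 4 lists. Their summits lay within a median of 123 bp of each other across lists, from 48 bp at the Sult2a1 intron to 314 bp at the Sult1d1 promoter, and the median over all 18309 such regions was 91 bp. Their median widths were 663 bp in B6 males, 508 bp in B6 females, 644 bp in CAST males and 450 bp in CAST females, and the corresponding medians over all regions were 803, 646, 788 and 599 bp. In both sets the female lists had the narrower peaks. They were also the shallower lists of each strain, and the part of depth in the widths was not tested.

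A list of 25 names of other sulfonation genes, in which Sult3a2 and Gm4794 name the same gene, gave 21 genes of the annotation, and 11 of them had no promoter peak in any list. All 11 were cytosolic sulfotransferases, Gm4794 among them, whereas 7 of the 8 sulfotransferases described above had a promoter peak in at least 1 list, as did 57.1% of all protein-coding genes. Only uniquely mapped reads were kept, and whether reads were lost at genes with close copies was not tested. A missing promoter peak thus does not show closed chromatin. The PAPS synthases, the transporters of PAPS and of sulfate, the phosphatases that clear the product PAP, and the tyrosylprotein sulfotransferases had a promoter DHS in every list, except that Impad1, 1 of these phosphatases, had none in CAST females. By list, 10, 10, 10 and 9 of the 21 had a promoter DHS in B6 males, B6 females, CAST males and CAST females. The 3 with the most regions that were not in all 4 lists were Gm4794, with 13 of 13, and Papss1 and Papss2, the PAPS synthases, with 6 of 7 and 6 of 11. Their regions in all 4 lists numbered 0, 1 and 5, beside 35.6% of all regions, and Papss2 passed that share. The promoter of Papss1 stood at fold enrichments of 10.8 in B6 males, 8.18 in B6 females, 11.01 in CAST males and 8.54 in CAST females.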

How the data were processed

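Per the labels and the methods of the study, reads were mapped with Bowtie2, allowing unique alignments, B6 reads to mm9 and CAST reads to mm9 carrying CAST variants, with CAST coordinates converted back. Peaks were called with MACS2. The authors deposited 1 merged list for each sex and strain. The peak names of each list carry the tag of 1 library, so that all 4 libraries were pooled rests on the label. The values deposited by the authors for each peak are the fold enrichment, a ratio of summit pileup to local background within the list, the −log10 p-value and −log10 q-value, a score of 10 times the latter, and the summit offset.

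Peaks sharing 1 bp or more were joined to make regions. Pileup and background were recovered from the fold, with a pseudocount of 1, and the p-value, and 99.9% or more of pileups lay within 0.02 of a whole number. Recovery and joining were tested on simulated data. Depth per library is not in the lists. Genes came from the GENCODE annotation of mm9, and all coordinates count from 1. No peak passed a chromosome end. Motifs were searched in 300 bp around summits, and matches elsewhere in mm9 with BLAST 2.17.0.

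Folds between lists are relative to the median fold over all shared regions and were counted past 1.5-fold. Intervals of 95% are exact Poisson and cover counting error only. With 1 list per group there was no test. Named regions of each gene were those within 2.5 kb of its TSS, its highest, those in both lists of 1 strain or sex only, and that with the largest fold. Other regions were described with them. The members, gene lists, motifs and tests were chosen with earlier results of these data known. Alternatives were a 50% overlap of both peaks, a stricter q-value, lists of equal size, depth matched by scaling, windows of 10 and 50 kb, peaks within 500 bp joined, no scaling, a 2-fold limit, pileup over genome-wide background, and percentile ranks. Summit spread and widths were also taken over regions with 1 peak of each list. Leaving out the Sult3a1 window was chosen after seeing the data. The Python packages were NumPy 2.4.6, pandas 2.3.3 and SciPy 1.17.1.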

Additional observations from a re-analysis of the deposited data

How the results depend on the processing

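No paired analysis was possible because the 4 libraries of each sex and strain were deposited as 1 merged list, which also means that leaving out replicates was not done. Absence from a list depends on depth, which was lowest in CAST females. Of the counts, widths and summit spreads recomputed over the members, 98 stayed within 1.5 times the reported count or within 1 SD over the regions of the reported width or spread, and 32 moved further. The 98 include counts of 0 that stayed 0. They also include the spread and widths over regions with 1 peak of each list, which were identical to those reported. Results without the Sult3a1 window are in both totals. No fold reported past the limit changed sign, but the balance of higher and lower counts turned for the sexes of B6 by pileup. The stricter settings keep fewer peaks by construction, and other causes were not tested.

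With the stricter threshold, which keeps the peaks with a −log10 q of 15.7 or more, the regions with a peak fell to 11 in B6 males, 4 in B6 females, 14 in CAST males and 8 in CAST females. Those in all 4 lists became 2, in both male lists only 4 and in 1 list 2. Those in both CAST lists only again numbered 5, of which 3 were among the reported 5, and the Sult3a1 and Sult2a1 intronic DHS entered because their B6 peaks fell below the threshold. The count of regions past 1.5-fold became 0 for male B6 over female B6, 0 for lower in CAST males and 0 for higher in CAST females. With lists of equal size, male CAST held 16 regions, 1 was in both B6 lists only and 0 in both male lists only. A 10 kb window left 2 regions in both CAST lists only, a 50 kb window gave 14 in all 4 lists, and joining peaks within 500 bp left 1 in both male lists only. Matching depth by scaling left every class within 1.5 times its reported count. Under it, with lists of equal size and with 50% overlap, the class in both CAST lists only held 5 regions, of which 4 were among the reported 5 and the other was the Sult3a1 intronic DHS. With 50% overlap, 7 regions were in all 4 lists, 3 in both male lists only and 19 in 1 list.

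With no scaling to the median fold, 3 regions were 1.5-fold higher in males of B6, 1 was higher and 1 lower in males of CAST, and 6 were higher in CAST females than B6 females. The shares over all shared regions were 24.3%, 12.5%, 0.395% and 15% in the same order. With a 2-fold limit the counts of scaled folds were 0 higher in B6 males, 0 lower in CAST males against CAST females and 0 lower in CAST against B6 males, and 1 higher in CAST females than B6 females, the Sult3a1 intronic DHS. The shares over all shared regions were 0.186%, 0.114%, 0.801% and 0.785% in the same order. By pileup over the genome-wide background, 0 regions were higher and 1 lower in B6 males than females, 6 were lower in CAST males than females, and 1 was lower in CAST than B6 females. The shares over all shared regions were 3.41%, 8.31%, 6.92% and 6.63% in the same order. Without the Sult3a1 window, male B6 held 19 regions, female B6 13, male CAST 17 and female CAST 11, with 0 in both CAST lists only and 8 in 1 list.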
